A study of Zea mays subsp. mays with 2 samples.

Results

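At 1901 positions on chromosomes 1 to 10 of maize, the deposited table lists exactly 2 assembled loci under one and the same start and end. These pairs were taken from the position column alone, but among listed loci, each of which exceeded 1 FPKM in at least 1 organ. A locus below that level in both organs could not form a pair, and its partner would count as single. The pairs hold 3802 of the 29674 listed loci, or 12.8% of the 29627 loci on the chromosomes. The root and shoot libraries each came from polyadenylated RNA of B73, the inbred line of the maize reference genome, collected 14 days after germination. No treatment, mutation or transgene is named in the labels, and each organ has 1 library, so the spread between plants was not measured and no p-value was computed.

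Transcripts that share a stretch of genome are common in plants. A second transcript can lie in an intron of the first, run beside it on the same strand, or be read from the opposite strand as a natural antisense transcript. Such antisense transcripts can lower, raise or leave unaltered the output of their partner, and the antisense RNAs of the Arabidopsis flowering gene FLC are a well studied case. Assemblers take the strand of a transcript in an unstranded library from its splice sites, so an unspliced transcript is left without one. The libraries here are unstranded and the table gives no strand, exon or gene name. Unspliced reads from a stretch shared by loci on opposite strands therefore cannot be told apart. The loci of a pair are called here the first and the second by their locus number.

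Levels are in FPKM, fragment counts scaled to the length of the transcript and to the size of the library, with 1 value per locus and organ. Ratios are log2 of (FPKM + 1), which understates the difference of low loci, unless a fold is said to be without the pseudocount. Every listed locus exceeded 1 FPKM in root, in shoot or in both. Plastid transcripts, abundant in green tissue, summed to 11.4 FPKM in root against 328 FPKM in shoot over 15 plastid loci. A fit was made to the steps between low FPKM values of loci alone at their position. By this fit, a level of 1 FPKM over 1000 effective bases rested on about 131 fragments in root and 113 in shoot. The fit was loose and searched a limited range of steps, so fewer fragments are possible. The length behind the FPKM of each paired locus is not in the table, so the fragments behind a paired value could not be estimated.

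Whether a shared position is the extent of each locus or of a group of overlapping loci is not given in the sources used here, so a span is that of the position. The median level of paired loci was 7.08 FPKM in root against 7.90 FPKM in shoot, against 9.97 FPKM in root against 10.6 FPKM in shoot for the 24534 single loci. The pooled difference was not the same in each of the 3 numbering runs described below. In the first run the medians of paired loci were 11.2 FPKM in root against 12.3 FPKM in shoot, and of single loci 10.6 FPKM in root against 11.4 FPKM in shoot, so paired loci were not the lower ones there. In the second run they were 9.38 FPKM in root against 10.5 FPKM in shoot for paired loci, and 10.8 FPKM in root against 11.2 FPKM in shoot for single loci. The median span of a position, end minus start with introns included, was 6143 bases for pairs and 3192 bases for single loci. The 1291 loci at positions with 3 or more loci had medians of 4.30 FPKM in root against 5.03 FPKM in shoot, and their positions had a median span of 10529 bases. Paired loci held 4.82% of the summed chromosomal FPKM in root and 4.95% in shoot. Detection at 1 FPKM was similar in paired and single loci. Of the paired loci, 84.6% reached it in both organs, 5.44% in root alone and 9.92% in shoot alone, against 83.3%, 6.66% and 10.04% of single loci.

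Pairs occurred on every chromosome in similar proportion. They made up 7.09% of chromosomal positions, from 6.02% on chromosome 4 to 7.74% on chromosome 3. Toward the chromosome ends the share was slightly larger. It was 7.54% of positions within the outer 10% of chromosome length at either end and 6.45% in the innermost part, from 40% to 50% of the length.

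The locus numbers divided the pairs into kinds. Along each of the 10 chromosomes the numbers climbed with position exactly 3 times, so every locus belongs to the first, the second or the third numbering run. What the runs stand for is not stated in the sources used here, and whether they follow the strand was not tested. In 1862 of the 1901 pairs the loci came from different runs: 871 pairs joined the first and the second run, 470 the first and the third, and 521 the second and the third. The other 39 pairs had both loci in 1 run, and their median span of 26904 bases was far above that of the rest. The third run held 26.3% of paired loci, against 6.43% of single loci. In both sets the third run was the lowest. Its median was 2.93 FPKM in root against 3.24 FPKM in shoot among paired loci, and 2.20 FPKM in root against 2.73 FPKM in shoot among single loci. Single loci of the third run had a median span of 527 bases, against 3387 bases in the first run and 3394 in the second. Among paired loci the median span was 5522 bases in the third run, against 6500 in the first and 6421 in the second.

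Which locus of a pair was higher followed these runs. In pairs of the first and the third run, the locus of the first run was higher in 425 of 470 pairs (90.4%) in root and in 427 (90.9%) in shoot. Medians there were 19.0 FPKM for the first locus and 3.25 FPKM for the second in root, and 18.6 and 3.61 FPKM in shoot. In pairs of the second and the third run, the locus of the second run was higher in 466 of 521 pairs (89.4%) in root and in 462 (88.7%) in shoot. Pairs of the first and the second run had no such order. The first locus was higher in 480 of 871 pairs (55.1%) in root and in 466 (53.5%) in shoot, with medians of 7.49 and 6.34 FPKM in root and 8.36 and 7.72 FPKM in shoot.

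**Figure D1:**
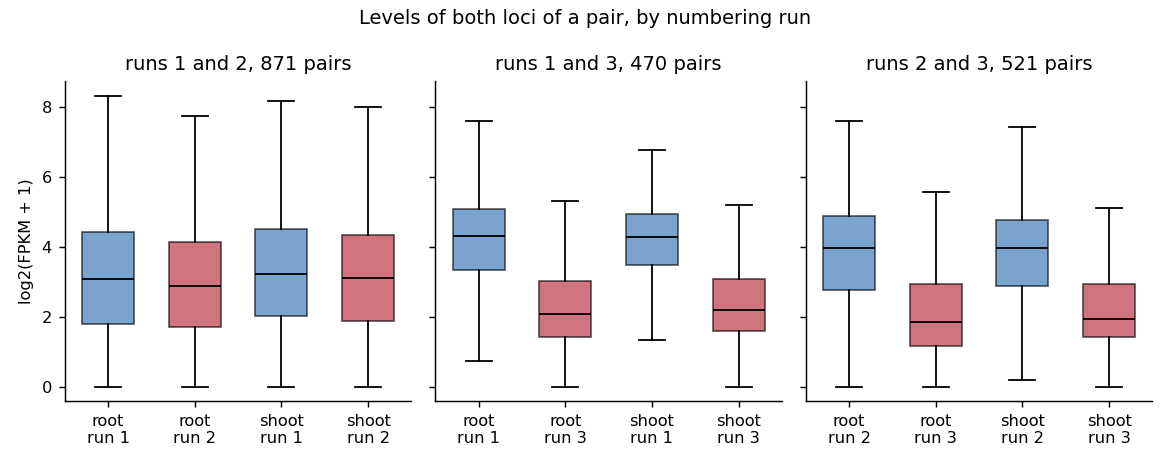
Level of both loci of a pair as log2(FPKM + 1), in root and in shoot, for pairs joining runs 1 and 2, 1 and 3, and 2 and 3; boxes span the quartiles with the median as a line, whiskers reach the farthest value within 1.5 box lengths, and points beyond are not drawn. Loci of the third run lie below their partners in both organs, while loci of the first and second run overlap almost fully.

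The loci of a pair mostly differed in level, about as often as neighbouring loci did. A ratio of 2-fold or more was found in 71.5% of pairs in root and 69.4% in shoot. Neighbouring couples were single loci next to each other along a chromosome once shared positions were left out. Of 24524 such couples, 70.9% had a ratio of 2-fold or more in root and 69.2% in shoot. Among the 1975 of these couples with a gap under 1000 bases, overlaps not excluded, it was found in 65.2% in root and 64.7% in shoot. In root the median log2 ratio of the higher to the lower locus was 1.73, with quartiles of 0.87 and 2.61, and in shoot it was 1.65, with quartiles of 0.84 and 2.47. The lower locus held a median of 18.4% of the summed FPKM of its pair in root and 20.1% in shoot. At 4-fold, 785 pairs (41.3%) were called in root and 732 (38.5%) in shoot. Of all neighbouring couples 46.7% were called in root and 44.6% in shoot, and of those with a gap under 1000 bases 41.0% in root and 39.3% in shoot, close to the pairs. This and the other differences between pairs and neighbouring single loci are descriptions of these libraries and were not tested. At 16-fold the pairs were fewer: 105 (5.52%) in root and 97 (5.10%) in shoot, against 15.5% in root and 13.3% in shoot of all neighbouring couples, and 12.2% in root and 11.1% in shoot of those with a gap under 1000 bases. Across the 1901 pairs the Pearson coefficient of log2(FPKM + 1) of both loci was 0.34 in root and 0.31 in shoot, against 0.06 in root and 0.06 in shoot across all neighbouring couples, and 0.18 in root and 0.14 in shoot across those with a gap under 1000 bases. These coefficients are descriptions over loci that share a library. In pairs with a locus in the third run they were 0.59 and 0.55 in root, and 0.54 and 0.53 in shoot, against 0.26 in root and 0.25 in shoot in pairs of the first and the second run.

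**Figure D2:**
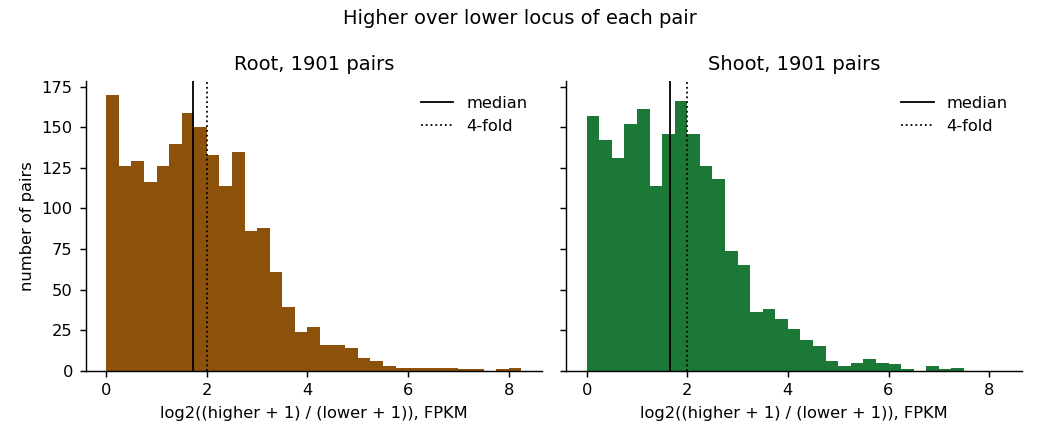
Number of pairs by log2 ratio of the higher to the lower locus, on FPKM + 1, in root and in shoot; solid lines mark the medians of 1.73 in root and 1.65 in shoot, and dotted lines mark 4-fold. The distributions are broad and similar in both organs, with few pairs beyond 5.

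The most abundant pairs showed this inequality at high level. On chromosome 5, from 148060184 to 148060798, the second locus was at 3976 FPKM in root against 9448 FPKM in shoot, and the first at 438 FPKM in root against 2640 FPKM in shoot. Here the second locus was higher in both organs, and the first was the more shoot-biased of them, at a log2 ratio of root to shoot of -2.59 against -1.25. On chromosome 6, from 6620502 to 6629391, the second locus was at 3629 FPKM in root against 3926 FPKM in shoot, and the first at 517 FPKM in root, 530.0 FPKM in shoot. This pair was nearly even between the organs, at 7.02-fold between its loci in root and 7.41-fold in shoot without the pseudocount. On chromosome 1, from 208293352 to 208294098, the first locus was at 2659 FPKM in root against 4069 FPKM in shoot, and the second at 237 FPKM in root, 370 FPKM in shoot. Its folds without the pseudocount, 11.2 in root and 11.0 in shoot, were almost equal although both loci were higher in shoot. On chromosome 5, from 200649357 to 200652234, the second locus was at 2411 FPKM in root against 1400.0 FPKM in shoot, and the first at 136 FPKM in root, 168 FPKM in shoot. The fifth of these pairs, on chromosome 7, switched between the organs and is described with the switches.

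At the extremes, 1 locus of a pair stood far above the other in both organs alike. On chromosome 1, from 233577004 to 233657413, the first locus was at 430.0 FPKM in root against 496 FPKM in shoot, and the second at 0.861 FPKM in root, 1.86 FPKM in shoot. On chromosome 2, from 212134917 to 212139407, the first was at 323 FPKM in root against 309 FPKM in shoot, and the second at 0.893 FPKM in root, 1.60 FPKM in shoot. The second locus led on chromosome 8, from 156767116 to 156773922, at 264 FPKM in root against 293 FPKM in shoot, with the first at 1.31 FPKM in root, 1.5 FPKM in shoot. It also led on chromosome 4, from 194340055 to 194344124, at 1183 FPKM in root against 1243 FPKM in shoot, with the first at 12.2 FPKM in root, 10.1 FPKM in shoot. These 4 pairs, with the largest ratios held by the same locus in both organs, all joined the first and the second run, and each of their loci differed by less than 2-fold between the organs on FPKM + 1.

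The most even pairs had nearly equal levels. On chromosome 6, from 24323606 to 24326889, the first locus was at 3.11 FPKM in root against 1.94 FPKM in shoot, and the second at 2.995 FPKM in root, 1.96 FPKM in shoot. On chromosome 8, from 143365387 to 143368978, the first was at 1.71 FPKM in root against 1.37 FPKM in shoot, and the second at 1.71 FPKM in root, 1.46 FPKM in shoot. On chromosome 10, from 127569382 to 127573172, the first was at 9.11 FPKM in root against 11.4 FPKM in shoot, and the second at 9.49 FPKM in root, 11.7 FPKM in shoot. On chromosome 7, from 11128042 to 11153581, the first was at 19.9 FPKM in root against 23.3 FPKM in shoot, and the second at 19.1 FPKM in root, 24.4 FPKM in shoot. Differences this small cannot be ordered with 1 library.

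The locus that was higher in root was in most pairs also the higher one in shoot. The same locus led in 1682 pairs (88.5%), the other led in 218 (11.5%), and 1 pair was tied in an organ. For comparison, the same locus led in 81.3% of all neighbouring couples and in 83.5% of those with a gap under 1000 bases. Most of the 218 were near-ties: 149 had a ratio under 1.5-fold in the organ where it was smaller, and 30 lay between 1.5-fold and 2-fold. A switch of 2-fold or more in both organs was seen in 39 pairs (2.05%), against 4.60% of all neighbouring couples and 3.65% of those with a gap under 1000 bases. With a pseudocount of 5 the count of switches was 18. The smallest switch counted had a log2 ratio of 1.004 and the largest left out 0.973. The shares varied with level. Where every value of the pair was at 10 FPKM or more, 0 of 248 pairs switched by 2-fold, against 1.24% of neighbouring single loci. Where the lowest value was under 1 FPKM it was 15 of 481 pairs (3.12%), against 9.09% of neighbours. Between these, from 1 to 3 FPKM it was 13 of 659 pairs (1.97%) against 3.88%, and from 3 to 10 FPKM it was 11 of 513 pairs (2.14%) against 2.74%.

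**Figure D3:**
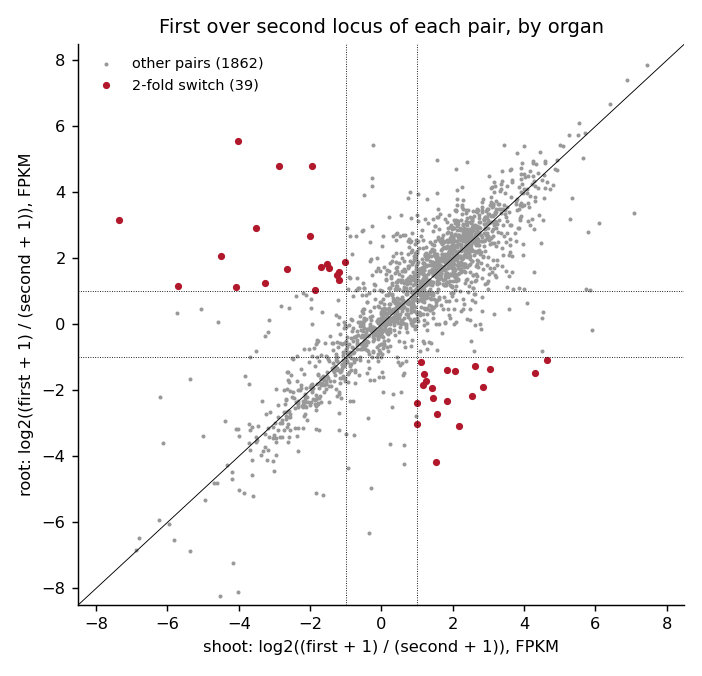
Log2 ratio of the first to the second locus of each pair, on FPKM + 1, in shoot (horizontal) and root (vertical); dotted lines mark 2-fold and the diagonal marks equal ratios. Most of the 1862 other pairs lie along the diagonal, and the 39 pairs with a 2-fold switch, in red, lie in the upper left and lower right corners.

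Switches belonged mainly to pairs of the first and the second run. Of the 39, 30 were among the 871 pairs of those runs (3.44%), 1 among the 470 of the first and the third (0.213%), 5 among the 521 of the second and the third (0.960%) and 3 among the 39 with both loci in 1 run (7.69%). They lay on all 10 chromosomes, with a median span of 7212 bases. All 4 values were at 1 FPKM or more in 24 of them, and the lower locus was under 1 FPKM in root in 14 and in shoot in 3. In 27 of the 39, exactly 1 locus was 4-fold or more higher in shoot and its partner was not called to either organ. In 5, 1 locus was higher in root in this way. Both loci were called to the same organ in 3 pairs, all to shoot, to opposite organs in 1, and neither was called in 3. By definition a switch sets the organ ratios of its loci at least 4-fold apart, which favours a called locus. Over all 1901 pairs, exactly 1 locus was called to shoot in 150 and to root in 65, so the lean to shoot was not particular to switches. As these are bulk organs, fewer cells of a type and less RNA per cell cannot be told apart.

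Among the largest switches, a locus that was low in root was very high in shoot beside a steadier partner. On chromosome 8, from 16422261 to 16444686, the second locus was at 0.743 FPKM in root against 627 FPKM in shoot, and the first at 81.6 FPKM in root, 37.5 FPKM in shoot. On chromosome 7, from 147056932 to 147061906, the second locus, XLOC_031379, was at 2.92 FPKM in root against 2987 FPKM in shoot, and the first at 34.3 FPKM in root, 17.3 FPKM in shoot. That second locus made up 7.86% of the sum of the pair in root and all but 0.575% of it in shoot. On chromosome 10, from 16205211 to 16214658, the second locus was at 0.371 FPKM in root against 288 FPKM in shoot, and the first stayed at 37.2 FPKM in root, 38.5 FPKM in shoot. On chromosome 6, from 156253585 to 156259469, the second locus was at 6.85 FPKM in root against 342 FPKM in shoot, and the first at 32.2 FPKM in root, 14.2 FPKM in shoot.

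The roles of first and second locus were the other way on chromosome 3. From 195933539 to 195944107 the first locus was at 1.38 FPKM in root against 51.8 FPKM in shoot, and the second at 9.74 FPKM in root, 8.13 FPKM in shoot. From 171439645 to 171448784 the first was at 2.997 FPKM in root against 119 FPKM in shoot, and the second at 32.8 FPKM in root, 25.6 FPKM in shoot. On chromosome 1, from 210841642 to 210848854, both loci were higher in shoot, the first at 6.60 FPKM in root against 38.0 FPKM in shoot, and the second listed at 0 in root and at 445 FPKM in shoot. A listed 0 can be a failed estimate, so no fold is given for it. The eighth switch, on chromosome 6 from 151448260 to 151457414, was led by root. There the first locus was at 29.3 FPKM in root against 1.31 FPKM in shoot, and the second at 3.74 FPKM in root, 8.18 FPKM in shoot.

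**Figure D4:**
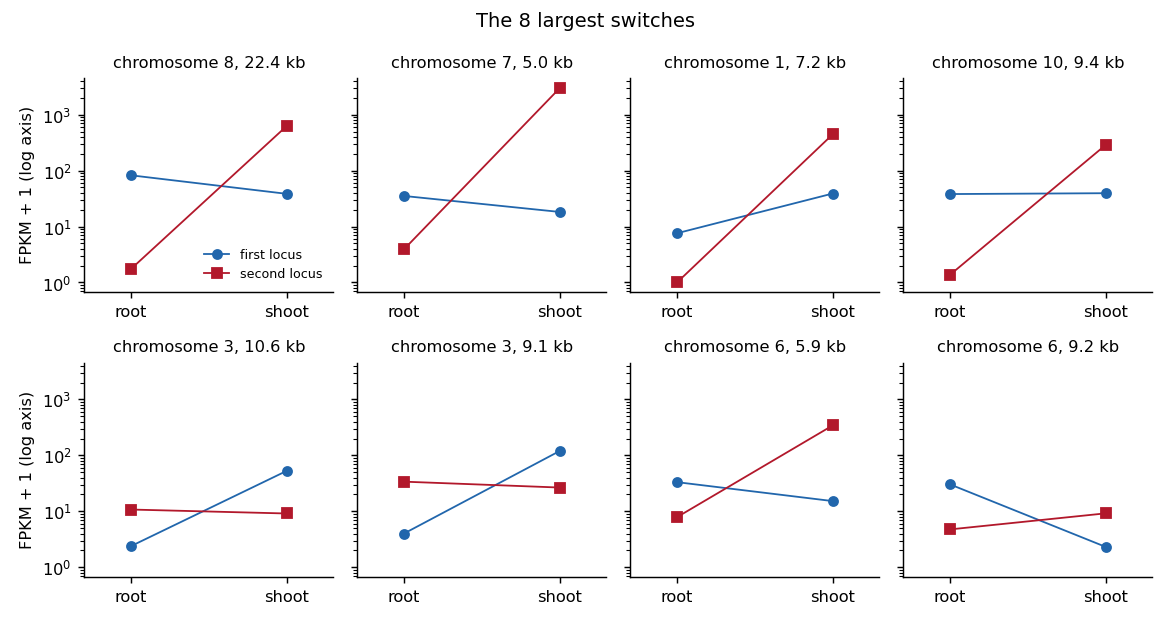
FPKM + 1 on a log axis of the first locus (blue circles) and the second locus (red squares) in root and shoot, for the 8 pairs with the largest switch, 1 library per organ. Lines cross in every panel, and in 7 of the 8 the steepest line climbs toward shoot.

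Both loci of a pair were in some cases called to the same organ, often with a value under 1 FPKM in the other organ. A locus was called to an organ at 4-fold on FPKM + 1. Of the 3802 paired loci, 103 (2.71%) passed this toward root and 212 (5.58%) toward shoot, against 3.52% and 6.79% of all listed loci. These counts moved with the processing, to 184 toward root and 359 toward shoot with a pseudocount of 0.1, and to 45 and 101 with a pseudocount of 5. In the 1420 pairs with every value at 1 FPKM or more they were 44 toward root and 90 toward shoot. In 18 pairs (0.947%) both loci passed toward root, and in 30 (1.58%) both passed toward shoot. Of the root-biased paired loci 34.95% thus had a root-biased partner, and of the shoot-biased 28.3% had a shoot-biased partner, against 11.4% and 10.1% over all neighbouring couples and 19.3% and 13.75% over those with a gap under 1000 bases. Of the pairs with both loci called, 12 of the 18 and 25 of the 30 had a value under 1 FPKM. A locus with such a value was listed only through its other organ. Among all neighbouring couples with both loci called to the same organ, 61 of 104 toward root and 119 of 176 toward shoot had such a value. A floor on every value takes out loci for being low in 1 organ, which is part of their bias. The shares above a floor therefore cannot tell low level from strong bias. With every value at 1 FPKM or more, 12 of the 44 root-biased loci had a root-biased partner (27.3%), and 10 of the 90 shoot-biased a shoot-biased one (11.1%). Neighbouring couples under 1000 bases apart and at that level had 20.5% toward root and 10.5% toward shoot, so the share toward shoot was then near that of the neighbours. In the 507 pairs with every value at 5 FPKM or more, 0 of 14 shoot-biased loci had a shoot-biased partner. Neighbours were not counted at that cut. With the lowest value from 1 to 3 FPKM it was 4 of 52 loci (7.69%) in pairs, against 8.97% in neighbouring couples. From 3 to 10 FPKM it was 6 of 35 loci (17.1%) in pairs, against 5.46% in neighbouring couples. At 10 FPKM or more it was 0 of 3 in pairs, against 6.57% in neighbouring couples. Over all couples of neighbours, 0.424% were both higher in root and 0.718% both higher in shoot. Among the 1975 with a gap under 1000 bases, these were 8 couples (0.405%) toward root and 20 (1.01%) toward shoot. The log2 ratio of root to shoot of the first locus correlated with that of the second over the 1901 pairs, with Pearson at 0.47 and Spearman at 0.51. Over 24524 neighbouring couples these coefficients were 0.09 and 0.10, and over the 1975 of these with a gap under 1000 bases they were 0.18 and 0.26. With every value at 1 FPKM or more they were 0.30 and 0.40 over pairs, against 0.11 and 0.17 over neighbours under 1000 bases apart. The Pearson coefficient was 0.37 in pairs of the first and the second run, 0.63 in those of the first and the third and 0.64 in those of the second and the third. In the 39 pairs with both loci in 1 run it was 0.10. It also fell with span, being 0.73 in the 475 narrowest pairs, up to 4037 bases, and 0.28 in the 476 widest, from 10503 bases upward.

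**Figure D5:**
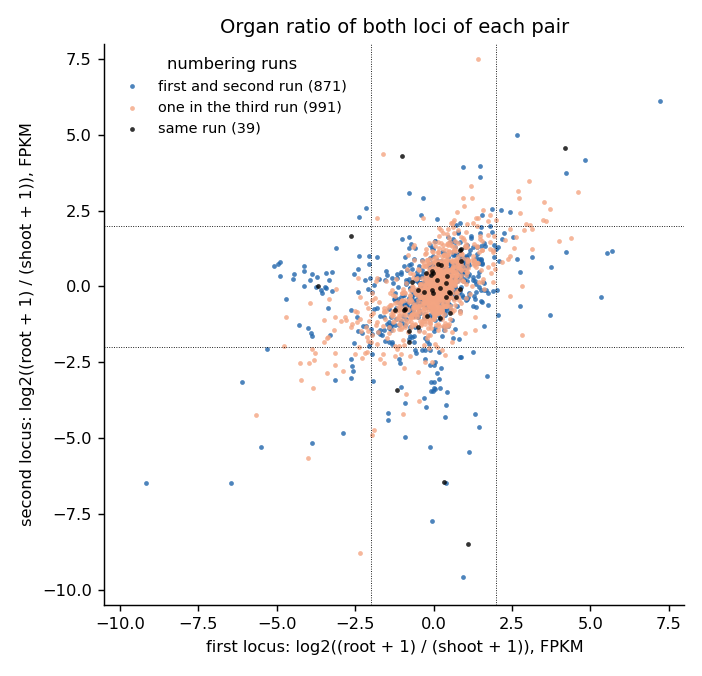
Log2 ratio of root to shoot, on FPKM + 1, of the first locus (horizontal) and the second locus (vertical) of each pair, coloured by the numbering runs of the loci; dotted lines mark 4-fold. Points stretch along the rising diagonal, with 18 pairs beyond 4-fold in root for both loci, 30 in shoot for both and 2 in opposite corners.

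The pairs most biased toward root by their summed level, among spans above 300 bases, were under 1 FPKM in shoot at both loci. On chromosome 3, from 15433834 to 15434198, the first locus, XLOC_013418, was at 147 FPKM in root against 0.00118 FPKM in shoot, and the second at 92.4 FPKM in root, 0.336 FPKM in shoot. With the fragments behind it unknown, the listed 0.00118 FPKM is read only as near 0. On chromosome 9, from 11072318 to 11073717, the second locus, XLOC_037300, was at 63.0 FPKM in root against 0.984 FPKM in shoot, and the first at 5.36 FPKM in root with a listed 0 in shoot. On chromosome 2, from 199206139 to 199211625, the loci were almost level in root, at 32.6 and 31.9 FPKM, and in shoot they had 0.183 and 0.810 FPKM. On chromosome 5, from 62603456 to 62605699, the first was at 27.2 FPKM in root against 0.156 FPKM in shoot, and the second at 8.08 FPKM in root, 0.0455 FPKM in shoot. Over the 18 pairs with both loci higher in root, the summed level had a median of 71.2 FPKM in root against 4.79 FPKM in shoot, and the same locus led in both organs in 16.

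The pairs most biased toward shoot included more abundant loci. On chromosome 7, from 5127910 to 5130011, the first locus, XLOC_029393, was at 3.34 FPKM in root against 2517 FPKM in shoot, and the second at 0.454 FPKM in root, 130 FPKM in shoot. The sum of this pair was 698-fold higher in shoot without the pseudocount. On chromosome 3, from 136563075 to 136581811, the loci were nearly equal in shoot, at 96.2 and 93.6 FPKM, while in root they had 0.106 and 0.0501 FPKM. The other pairs at the top of this order were the switches on chromosome 7 and chromosome 1 given above. Over the 30 pairs with both loci higher in shoot, the summed level had a median of 1.66 FPKM in root against 45.6 FPKM in shoot, and the same locus led in both organs in 23.

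Opposite bias at 4-fold was rare, at 2 of 1901 pairs (0.105%), against 0.396% of all neighbouring couples and 3 of the 1975 with a gap under 1000 bases (0.152%). Both joined the first and the second run. On chromosome 5, from 163414337 to 163419702, the first locus was at 2.69 FPKM in root against 15.5 FPKM in shoot, and the second at 12.7 FPKM in root, 1.31 FPKM in shoot. On chromosome 8, from 6917510 to 6931105, the first was at 24.9 FPKM in root against 133 FPKM in shoot, and the second at 11.4 FPKM in root, 1.52 FPKM in shoot, so the first led in both organs. In 6 further pairs 1 locus reached 1 FPKM in root alone and the other in shoot alone. They were all low, with 2.42 FPKM as the highest value, and 2 of them were switches of 2-fold. The 2 opposite pairs and these 6 were picked out after their values were seen.

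Organ ratios within a pair were mostly close, with a tail of unequal ones. The log2 ratios of root to shoot of the loci differed by a median of 0.46, and in 1111 pairs (58.4%) by less than 1.5-fold, against 0.79 and 40.0% in all neighbouring couples and 0.57 and 50.6% in those with a gap under 1000 bases. A difference of 4-fold or more was found in 157 pairs (8.26%), against 19.9% of all neighbouring couples and 14.9% of those with a gap under 1000 bases. It was more frequent in pairs of the first and the second run (12.9%) than in those of the first and the third (4.04%) or the second and the third (3.84%). In the 39 pairs with both loci in 1 run the share was 15.4%. Of the 6 pairs that differed most, 4 are among the switches described above. On chromosome 8, from 29714797 to 29720331, the second locus was at 4.75 FPKM in root against 509 FPKM in shoot, beside a first locus at 11.9 FPKM in root, 8.85 FPKM in shoot. On chromosome 7, from 6539978 to 6601230, the second locus was at 0.111 FPKM in root against 95.2 FPKM in shoot, beside a first locus at 30.2 FPKM in root, 23.8 FPKM in shoot. In all 6, the second locus was the higher one in shoot and the first the higher one in root.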

How the data were processed

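Polyadenylated RNA of 1 root and 1 shoot sample was sequenced paired-end, per the labels' protocols. The deposited table gives FPKM per assembled locus. The submitters' processing notes name TopHat, Cufflinks and Cuffdiff. Versions, the handling of overlapping loci and scaling between libraries were not given in the sources used. The genome build is B73 RefGen_v2, as the file headers state. Both sample columns were matched by name and 0 were left unused.

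Loci on chromosomes 1 to 10 whose position occurs exactly 2 times were paired. Numbering runs were split where the start fell back by more than 1000000 bases. Neighbouring couples are consecutive, by start, among the positions with 1 locus each, so a position with 2 or more loci can lie between them. A gap under 1000 bases does not exclude an overlap. Organ and within-pair calls used a fold of 4, and switches a fold of 2 in both organs, all with a pseudocount of 1. With 1 library per organ no test was possible. Pairs were named by rank: the 5 highest in summed level, the 8 largest switches, the 4 most biased toward each organ, the 6 with the most unequal organ ratios, the 4 most even and the 4 most uneven. Named loci were placed by position because no annotation of this build was used here. The members, rules and thresholds were chosen with earlier results of these data known.

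The worth of 1 fragment was fitted on 171 root and 113 shoot loci of low level, with mean cosines of 0.527 and 0.543 for whole fragments. Worths above the range searched, which would mean fewer fragments, could not have been found. The pair statistics and this fit were tested on simulated data. Values were computed in Python 3.11.15 (numpy 2.4.6, pandas 2.3.3, scipy 1.17.1) and drawn with matplotlib 3.10.9. The alternatives were other pseudocounts, thresholds, filters and scalings.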

Additional observations from a re-analysis of the deposited data

How the results depend on the processing

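Each of 8 results was recomputed under up to 11 alternatives, giving 84 values, of which 47 stayed within 1.5 times of a reported count or within the exact 95% binomial rank interval of a reported median. The thresholds and the pseudocount moved most of the others. Counts were compared as such and not as shares, so an alternative with fewer pairs could move a count by that alone. With lower thresholds (1.5-fold for switches, 2-fold otherwise) there were 69 switches, 1360 pairs called within root and 1319 within shoot, 397 paired loci higher in root, 523 higher in shoot and 19 pairs of opposite bias. With higher thresholds (4-fold for switches, 8-fold otherwise) these were 7, 317, 268, 38, 107 and 0. A pseudocount of 5 gave 18, 369, 345, 45, 101 and 0, with median log2 ratios within a pair of 1.15 in root and 1.08 in shoot. A pseudocount of 0.1 gave 184 loci higher in root, 359 higher in shoot, 9 opposite pairs and medians of 2.05 and 1.94. Keeping only the 1420 pairs with every value at 1 FPKM or more left 24 switches, 44 loci higher in root and 90 higher in shoot; fewer pairs entered. Rescaling each library to a sum of 1000000, which shifted the median log2 ratio of all loci to 0.14 against 0.06 as deposited, also lowered every value against the fixed pseudocount of 1, and gave 0 opposite pairs and medians of 1.53 and 1.43. Scaling root to the sum of shoot, an alternative chosen after seeing the data, leaves the level in place and gave 2 opposite pairs and medians of 1.74 and 1.65, and dividing root by the median ratio gave 2, 1.71 and 1.65. The 871 pairs of the first and the second run, an alternative chosen after seeing the data, gave 311 and 298 pairs called within root and shoot, 42 and 119 loci higher in root and shoot, and medians of 1.5 and 1.34. The pairs called were 35.7% of the 871 in root and 34.2% in shoot, against 41.3% and 38.5% of all pairs. Their 30 switches stayed within 1.5 times of the reported count, though the share was 3.44% against 2.05%. Shoot held more of the biased paired loci than root under each of these alternatives, as it did over all listed loci (1045 in root, 2014 in shoot). Among pairs with every value at 5 FPKM or more shoot did not hold more, with 17 loci higher in root and 14 in shoot. These are few loci, and the counts depended on the cut. With the lowest value from 3 to 10 FPKM they were 17 in root and 35 in shoot, and at 10 FPKM or more 4 and 3. Neighbouring couples at 10 FPKM or more had 101 loci higher in root and 213 in shoot. No paired analysis was possible because each organ has 1 library. Leaving out a library was likewise not possible, and without the length of each locus the counting error of a paired value is unknown.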

Other observations

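The mitochondrial genome held 1 pair of this kind, outside the chromosomes. From 400053 to 404303, its first locus was at 191 FPKM in root against 115 FPKM in shoot, and its second at 2.19 and 1.28 FPKM. Both loci belonged to the same numbering run, and the first led in both organs.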
